A study of Rattus norvegicus with 2 samples.

Results

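The genes described are the heat shock chaperones and their helpers of the cytosol and the mitochondrion, as read in rat liver by a pair of microarrays. They were chosen by name: HSP70, HSP110 and small heat shock proteins, HSP90, HSP60 and HSP10, the J-domain proteins DNAJA, DNAJB and DNAJC, the CCT chaperonin ring, the BAG proteins and the adaptors Stip1 and St13, without 4 known chaperones of the endoplasmic reticulum. The array carried 117 probes for 80 such gene symbols, and 70 of them (87.5%) were detected (the authors' letter P) on at least 1 array, against 69.6% of 17119 symbols on the whole array. The brightest probe stood for each gene, and 68 of the 70 were detected on both arrays. Not detected were Hspa1l, Hspa2, Hspb2, Hspb7, Hspb9, Dnajb7, Dnajb8, Dnajb13, Dnajc5b and Dnajc5g, most of them known from testis or muscle. Nearest to the detection limit by mean signal, Hspa1a was kept with 3.54 in the propolis pool and 4.34 in the saline pool, and Dnajb8 was left out with 3.70 in the propolis pool and 3.48 in the saline pool.

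The propolis pool came from male Wistar rats, 22 weeks old, given 52% alcohol at 1% of body weight for 7 weeks, a model of chronic alcoholic fatty liver. For 4 more weeks they received an extract labelled EEP, called propolis here after the series title, dissolved in 50% ethanol and dosed at 0.1% of body weight. The other pool came from rats with the same alcohol feeding that received normal saline at that dose and for that time. The groups therefore differed in the ethanol of the vehicle as well as in the extract, and the labels do not make plain whether the earlier alcohol continued. RNA of 6 rats per group was pooled and hybridised to 1 one-colour Agilent array per pool, so no comparison has a replicate check and no p-value is given. Differences are in log2 units throughout, propolis minus saline, so a positive value means a higher signal in the propolis pool.

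Chaperones bind proteins that are not yet folded or have lost their fold, and they release them in cycles driven by ATP. HSP70 does this together with J-domain proteins, which bring it clients and start ATP hydrolysis, and with exchange factors such as HSP110 and the BAG proteins, which reset it. Stip1 hands clients on to HSP90, the CCT ring folds actin and tubulin, HSP60 and HSP10 form the folding chamber of mitochondria, and small heat shock proteins hold unfolded proteins without ATP. Many of these genes are switched on by heat shock factor Hsf1 when proteins misfold, and the liver, a tissue with heavy protein synthesis, uses the constitutive ones at all times.

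The chaperones differed little between the pools, and the differences that were seen leaned towards higher signals in the propolis pool. Of 70 genes, 44 (62.9%) lay above 0, against 52.4% of all 11912 detected genes, and their median log2 difference was 0.11, against 0.02 for all genes. At least 1.5-fold higher were 3 members (4.29%, against a background of 8.07%), namely Dnajb3, Hspb1 and Hspb3. At least 1.5-fold lower were also 3 (background 10.2%), namely Dnajc27, Hspa1a and Hspa1b, with Hspa1a counted by its measured values, since its bound given further on is under 1.5-fold. At 2-fold 1 was higher, Dnajb3 (background 3.57%), and 1 lower, Dnajc27 (background 5.08%). Each count lies below its background share, and this difference from the array as a whole was not tested. The 2 sets are not matched, since 935 of the 11912 background genes had a P on 1 array alone, against 2 of the 70 members. With P required on both arrays, 3 of 68 members were at least 1.5-fold higher and 2 lower, against 598 and 813 of 10977 genes. At 2-fold, 1 member was higher and 1 lower, against 192 and 295 genes. Each member share stayed below the background, by a smaller gap. The interquartile range of the differences was 0.32 over the members and 0.43 over all genes. The sets differ in signal too. Under a mean signal of 6 lay 10 of the 70 members, against 3068 of the 11912 genes. That dim range held 560 of the 961 genes at least 1.5-fold higher and 676 of the 1216 lower. The part of signal in these gaps was not tested.

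**Figure D1:**
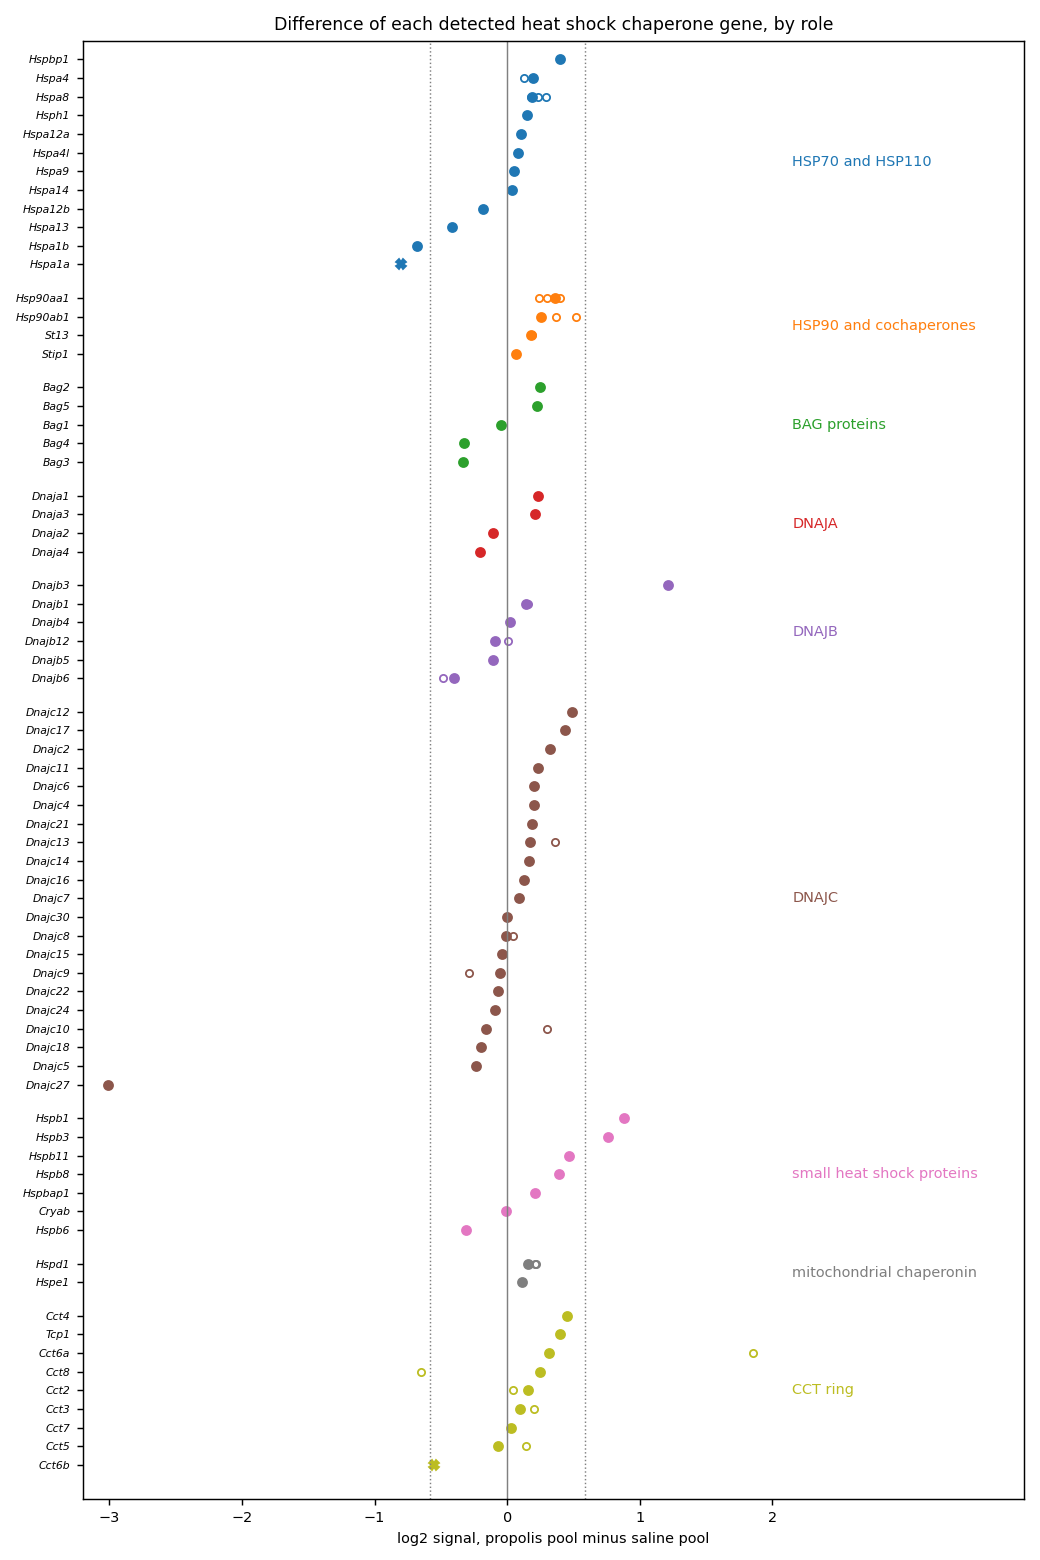
Log2 difference (propolis pool minus saline pool, x axis) of the 70 detected chaperone genes, grouped by role. Filled circles are the brightest probe, open circles other probes detected on both arrays, and crosses genes detected on 1 array only; dotted lines mark 1.5-fold. Most points lie between the dotted lines, and Dnajc27 stands alone at -3.01.

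The only error these files hold is the spread between probes of 1 gene on the same arrays, which leaves out animals and pools. Over 2595 genes for which both arrays detected at least 2 probes, the robust SD of a difference was 0.34 log2 units where the mean signal was under 6, 0.20 from 6 to 9, 0.14 from 9 to 12 and 0.11 at 12 or more. Measured against the SD of its signal range, the difference of 49 of the 70 members (70.0%) was under 2 SD, a share close to the 70.4% of all genes. More than 3 SD higher were 7 of the 70 members, a larger share than the 7.40% of all genes. More than 3 SD lower were 3 of the 70 (4.29%), a smaller share than the 9.73% of all genes. Neither gap was tested.

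**Figure D2:**
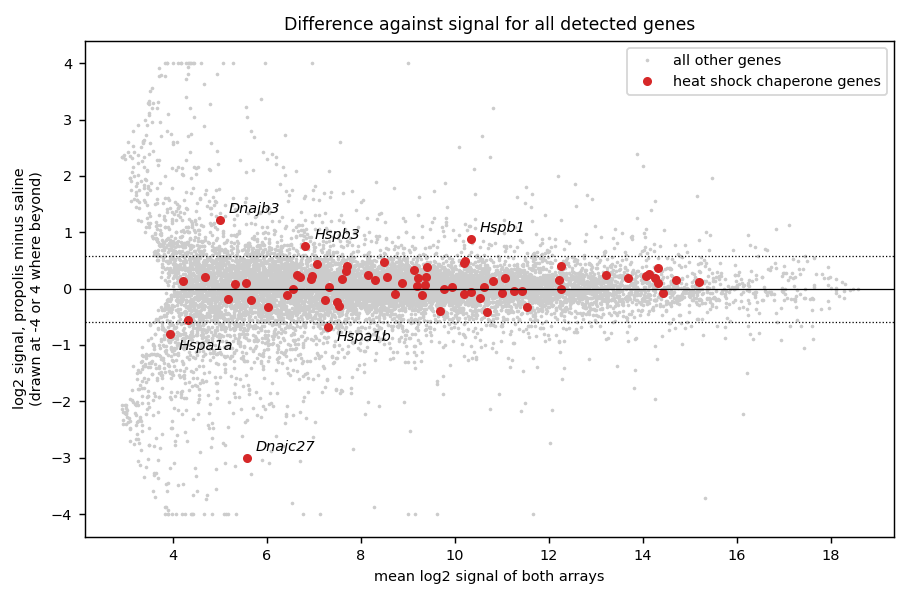
Log2 difference (y axis) against mean log2 signal of both arrays (x axis) for all detected genes (grey) and the 70 chaperone genes (red), with dotted lines at 1.5-fold and points beyond 4 units drawn at that edge. The 13 chaperone genes with a signal of 12 or more form a narrow band, with 11 of them above 0.

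The steadiest lean was among the brightest chaperone genes. Of 13 members with a mean signal of 12 or more, 11 lay above 0 (84.6%), against 48.8% of 1500 genes in that range, with a median of 0.18 against -0.004. Their interquartile range was 0.14, against 0.35 for all genes of that range. These 11 were Tcp1, Hsp90aa1, Hsp90ab1, Cct8, Dnaja1, Hspa8, St13, Cct2, Hspd1, Hspe1 and Cct3, and those below 0 were Dnajc8 (-0.01) and Dnajc22 (-0.07). In the lower ranges the members split more evenly, with 13 of 24 above 0 from 9 to 12, 15 of 23 from 6 to 9 and 5 of 10 under 6.

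Some of the same genes were read by several probes. All 4 members for which both arrays detected at least 3 probes (Hsp90aa1, Hsp90ab1, Hspa8 and Hspd1) had every probe above 0. The same was true of 28.1% of 466 genes with so many probes. The third probe of Hsp90ab1 lies away from its others in the deposited coordinates, as given further on. Whether it reads that gene was not checked. Probes of 1 gene share the RNA, the labelling and the arrays, so they repeat the reading and not the experiment. Among the 18 members with at least 2 such probes, all probes lay on one side of 0 in 13 (72.2%), a share close to the 66.2% of all 2595 such genes.

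The HSP70 and HSP110 group held genes on both sides of 0, constitutive and inducible alike. Hspa8, the constitutive cytosolic HSC70, had a log2 signal of 14.35 in the propolis pool, against 14.16 in the saline pool, a difference of 0.19. Its 4 probes averaged 0.22 ± 0.05 (SD over 4 probes) and ran from 0.18 to 0.30. All of them were higher in the propolis pool by a little more than the probe spread.

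Hspa1b, an inducible HSP70 that is low in unstressed cells, had 6.96 in the propolis pool, against 7.64 in the saline pool (difference -0.68, 1.60-fold lower). Its neighbour and near-copy Hspa1a was detected in the saline pool only, with 3.54 in the propolis pool, against 4.34 in the saline pool. Against the lowest detected signal of the propolis array, 3.83, Hspa1a was at least 1.42-fold lower. Since Hspa1a passed the detection filter through the saline pool alone, its side of 0 was fixed by that filter, and the lower signal of inducible HSP70 rests on the 1 Hspa1b probe. A second Hspa1b probe was detected on neither array (1.91 in the propolis pool, against 1.87 in the saline pool). Transcripts of Hspa1a and Hspa1b are so alike that their probes may bind both, which the signals cannot separate. In the deposited coordinates, for which no source used here names a genome build, the Hspa1b probe starts at position 3957864 and the Hspa1a probe at 3956838 of chromosome 20.

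Hspa9, the HSP70 of mitochondria, had 9.21 in the propolis pool, against 9.16 in the saline pool, a difference of 0.05 that is smaller than the probe spread. Hspa13, a microsome-associated relative, was 1.33-fold lower (10.49 in the propolis pool, against 10.90 in the saline pool, difference -0.41). Hspa12b, also below 0, differed by -0.19. Hspbp1, an exchange factor, had 7.90 in the propolis pool, against 7.50 in the saline pool (0.40, the highest of the group), Hspa4, of the HSP110 family, differed by 0.19 and Hsph1, the inducible HSP110, by 0.15. Over the whole group of 12 detected genes, 8 lay above 0 and the median was 0.07.

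HSP90 genes were higher by every probe. Hsp90aa1, the stress-inducible cytosolic form, had 14.50 in the propolis pool, against 14.14 in the saline pool (0.36, 1.29-fold higher). Its 4 probes averaged 0.33 ± 0.07 (SD over 4 probes) and ran from 0.24 to 0.40. Hsp90ab1, the constitutive form, had 14.26 in the propolis pool, against 14.01 in the saline pool (0.25), and its 3 probes averaged 0.38 ± 0.13 (SD over 3 probes). That average includes the dimmest probe, with the largest difference (0.52), which lies away from the others in the deposited coordinates. The inducible and the constitutive HSP90 genes thus leaned the same way, and neither reached 1.5-fold. Of the adaptors grouped with them, St13 (HIP, which binds HSP70) differed by 0.18 by its brightest probe and 0.19 by its other. Stip1 (HOP), the adaptor of HSP70 and HSP90, differed by 0.07, within the probe spread.

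BAG proteins, which release clients from HSP70, went both ways. Bag3, the stress-inducible member that directs clients to autophagy, had 11.38 in the propolis pool, against 11.71 in the saline pool (-0.33, 1.26-fold lower). Bag2, an inhibitor of the ubiquitin ligase CHIP, was the highest of the 5, with 8.28 in the propolis pool, against 8.03 in the saline pool (0.25). Bag1 differed by -0.05. Bag4 (-0.32) and Bag5 (0.23), named after their values were seen, lay on either side. Hspb8, the small heat shock protein that works in a complex with Bag3 and was named in the same way, lay on the other side of 0 from Bag3, at 0.39.

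**Figure D3:**
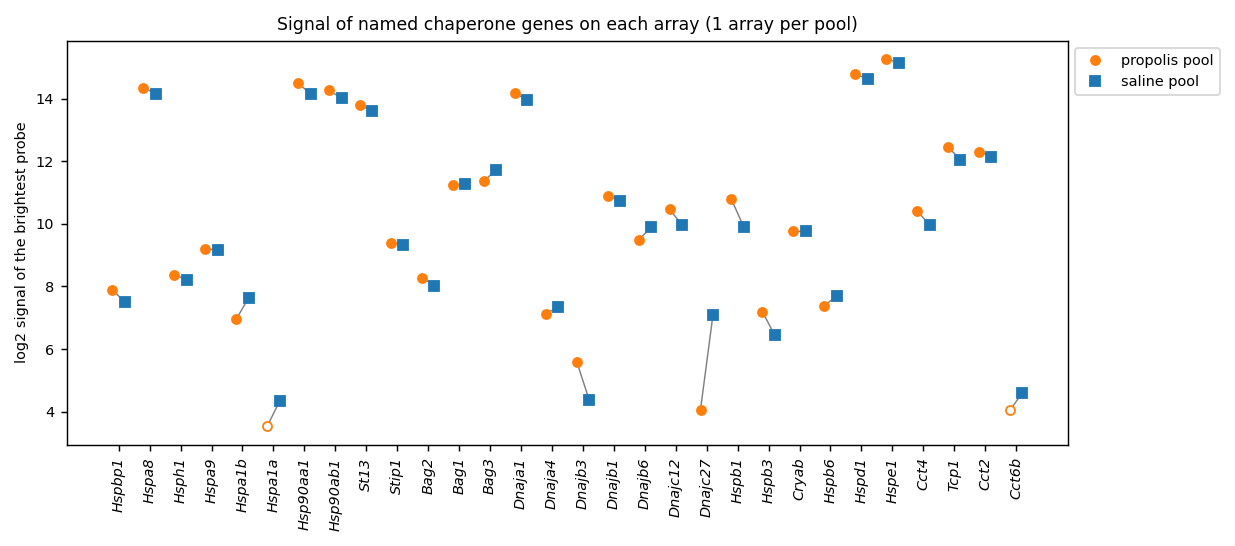
Log2 signal of the brightest probe (y axis) of 30 named chaperone genes in the propolis pool (orange circles) and the saline pool (blue squares), with open symbols where the probe was not detected. Dnajc27, with 4.07 in the propolis pool and 7.08 in the saline pool, is the furthest apart. Heights of different genes come from different probes and are not comparable.

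The J-domain proteins that serve cytosolic HSP70 lay on both sides of 0. Dnaja1, the abundant cytosolic HSP40 that serves Hspa8, had 14.18 in the propolis pool, against 13.95 in the saline pool (0.23). Dnajb1, the classical inducible HSP40, differed by 0.14, and by 0.16 with its second probe. Dnaja2, another cytosolic HSP40, differed by -0.10. The DNAJA group as a whole had 2 of 4 genes above 0, with Dnaja4 lowest at -0.21. Those above 0 were Dnaja1 and Dnaja3 (0.21), and Dnaja3 is mitochondrial, so Dnaja1 was the only cytosolic one above 0. Of the 6 DNAJB genes detected, 3 lay above 0. The 6 include Dnajb12 (-0.10), known from the endoplasmic reticulum.

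Dnajb6, a suppressor of protein aggregation, was 1.32-fold lower (9.48 in the propolis pool, against 9.89 in the saline pool, -0.40), and its second probe gave -0.48. Both probes agreed in side and size. Dnajb3, known from spermatids in the mouse, was 2.32-fold higher, with 5.60 in the propolis pool, against 4.39 in the saline pool (1.22). That saline signal lay close to the lowest detected value of its array, 3.83, and Dnajb3 has no second probe. Its probe starts at position 87085861 of chromosome 9 in the deposited coordinates.

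The DNAJC group, the most varied of the J-domain classes, had 11 of 21 genes above 0 and a median of 0.09. All but Dnajc27 lay between -0.23 and 0.49. Dnajc12, a cochaperone of phenylalanine hydroxylase, was the highest, with 10.46 in the propolis pool, against 9.97 in the saline pool (0.49, 1.41-fold higher). Dnajc27, which joins a J domain to a small GTPase fold, had 4.07 in the propolis pool, against 7.08 in the saline pool (-3.01, 8.05-fold lower). The propolis signal lay close to the lowest detected value of its array, 3.83, and with 50 units added to the signals the difference was -1.47. This single value rests on the probe that starts at position 27090388 of chromosome 6. Both other Dnajc27 probes were detected on neither array, with 3.20 and 1.97 in the propolis pool, against 1.90 and 2.02 in the saline pool. They neither repeat the difference nor give a level to set against it.

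The small heat shock proteins held the highest difference among members with a mean signal of at least 6. Hspb1 (HSP27 in humans), an inducible holder of unfolded proteins and of actin filaments, had 10.78 in the propolis pool, against 9.90 in the saline pool. The difference of 0.88 (1.85-fold higher) is 6.44 times the probe SD of its signal range, although Hspb1 was read by 1 probe only, at position 21911494 of chromosome 12. Hspb3, best known from muscle, was 1.69-fold higher (7.20 in the propolis pool, against 6.44 in the saline pool, 0.76), also by 1 probe.

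Not all of this family shared that direction. Cryab, alpha-B crystallin, differed by -0.01 (9.76 in the propolis pool, against 9.77 in the saline pool). Hspb6 (HSP20) had 7.39 in the propolis pool, against 7.70 in the saline pool, a difference of -0.31. Striated muscle markers were nearly absent: of 6 such genes, Ckm, Myh1, Acta1 and Tnnt3 were detected on neither array, Tnnc2 in the saline pool only, and Mb had 8.10 in the propolis pool, against 8.09 in the saline pool. Hspb2, Hspb7 and Hspb9 were not detected. The name pattern also takes in Hspb11 (0.47), which is now named Ift25 and belongs to intraflagellar transport, and Hspbap1 (0.21), a binding partner of the family.

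HSP60 and HSP10 lay close to 0 on the upper side. Hspd1 (HSP60) had 14.78 in the propolis pool, against 14.62 in the saline pool (0.16), and its 4 probes averaged 0.19 ± 0.04 (SD over 4 probes). Hspe1 (HSP10) had 15.26 in the propolis pool, against 15.15 in the saline pool (0.11). Each difference was under 1.5 times the probe SD. Of 7 members known from mitochondria, grouped after their values were seen, 5 lay above 0 (median 0.11, range -0.04 to 0.23).

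Subunits of the CCT ring, which folds actin and tubulin, were mostly higher, with 7 of 9 above 0 and a median of 0.16. Cct4 was the highest, with 10.42 in the propolis pool, against 9.97 in the saline pool (0.45, 1.37-fold higher). Tcp1, the founding subunit, had 12.45 in the propolis pool, against 12.05 in the saline pool (0.40), and Cct2 differed by 0.16. Both Cct4 and Tcp1 were read by 1 probe.

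Other probes of the ring disagreed in places, and the genes concerned were named for that after their values were seen. Cct6a differed by 0.32 by its brightest probe and by 1.85 by another, which had 6.64 in the propolis pool, against 4.79 in the saline pool. Cct8 differed by 0.25 by its brightest probe and by -0.65 by another, and Cct5 by -0.07 by its brightest and 0.14 by another. The other probes of Cct2 (0.04) and Cct3 (0.21) lay above 0 like their brightest, so 4 of the 5 other probes of the ring did. Cct6b, a form known from testis, passed the detection filter through the saline pool only, with 4.05 in the propolis pool, against 4.61 in the saline pool (at least 1.47-fold lower).

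Heat shock factors bind runs of the unit GAA and its complement TTC, and paired units were searched in the promoters of the members. The windows were RefSeq's 250 bases before to 50 after the annotated gene start in the rat assembly GRCr8, which has windows for 62 of the 80 symbols. The motifs were GAANNTTC and TTCNNGAA, each its own reverse complement, so 1 pass covers both strands, and matches of the pair may overlap. At least 1 match stood in 21 of these 62 promoters (33.9%), against 15.9% of all 33469, and at least 2 matches in 10 (16.1%), against 2.28%. To show what the matches look like, promoters of a gene with a large difference, of the constitutive HSP70 and of the HSP60 and HSP10 pair are shown in lower case, with the matched bases in capitals. They lie at chr12:26432252-26432551 on the minus strand for Hspb1, chr8:50080264-50080563 on the plus strand for Hspa8 and chr9:64084077-64084376 on the plus strand for Hspe1.
Hspb1: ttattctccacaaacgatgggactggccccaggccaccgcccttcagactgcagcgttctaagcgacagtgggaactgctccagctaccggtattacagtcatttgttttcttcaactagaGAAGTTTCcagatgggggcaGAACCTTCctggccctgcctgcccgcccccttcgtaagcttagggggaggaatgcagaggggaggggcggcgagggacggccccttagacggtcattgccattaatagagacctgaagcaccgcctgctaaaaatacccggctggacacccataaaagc
Hspa8: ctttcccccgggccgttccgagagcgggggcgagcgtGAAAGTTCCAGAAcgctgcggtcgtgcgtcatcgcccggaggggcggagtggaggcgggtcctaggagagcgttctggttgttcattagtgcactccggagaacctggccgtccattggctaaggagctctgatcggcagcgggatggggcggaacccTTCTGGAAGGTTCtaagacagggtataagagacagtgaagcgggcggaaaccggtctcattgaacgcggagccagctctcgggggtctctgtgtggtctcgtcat
Hspe1: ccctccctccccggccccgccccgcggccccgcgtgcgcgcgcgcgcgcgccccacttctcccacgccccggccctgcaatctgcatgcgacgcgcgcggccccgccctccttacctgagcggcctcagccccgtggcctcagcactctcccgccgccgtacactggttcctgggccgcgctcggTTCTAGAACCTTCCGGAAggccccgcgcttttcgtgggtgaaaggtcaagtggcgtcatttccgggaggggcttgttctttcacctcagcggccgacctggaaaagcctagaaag

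Of the members at least 1.5-fold apart that have a window, Hspb1 alone holds 2 or more matches, and Hspa8 and Hspe1 were chosen for display after their values were seen. In Hspa8 the 4 matches form a pair of overlapping couples, and in Hspe1 the 3 matches run into each other as 1 block. The same block lies in the window of Hspd1, which is read in the other direction, with 290 bases between the annotated starts, so those matches count for both genes. Dnajc27 had 1 match and Dnajb3 none. The window of Hspa1a held no match, and Hspa1b, Hsp90aa1 and Cryab are among the 18 symbols not matched. The Hspa1a window follows an annotated start at 3859756, inside the annotated Hspa1l gene (3853496 to 3860223 of chromosome 20). Sequence outside that window was not searched, so the missing match does not show that Hspa1a lacks the element.

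Members with and without matches overlapped widely in their differences. Of the 10 detected members with at least 2 matches (Hspa8, Hspa9, Hsph1, Dnaja1, Dnajb1, Hspb1, Hspb6, Hspd1, Hspe1 and Cct4), 9 lay above 0, with a median of 0.15 and a range from -0.31 (Hspb6) to 0.88 (Hspb1). Of 9 with 1 match, 4 lay above 0, with a median of -0.07. Of 35 with none, 23 lay above 0, with a median of 0.16, so the middle value was about the same with many matches as with none. A match is a run of letters and does not show that a factor binds.

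**Figure D4:**
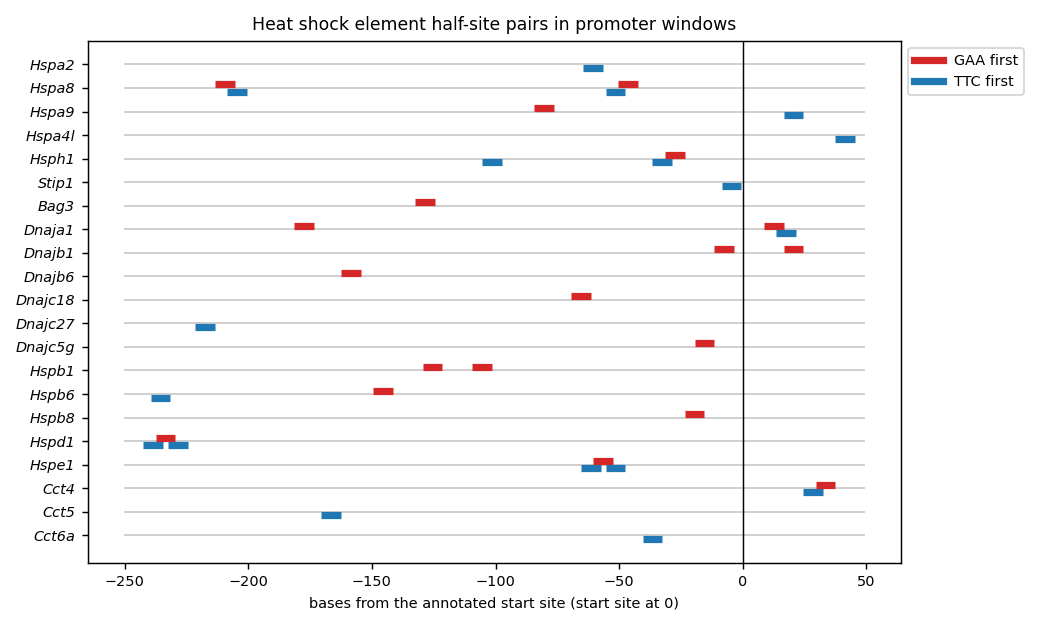
Positions of GAANNTTC (red) and TTCNNGAA (blue) matches in the promoter windows of the 21 symbols that hold at least 1, in bases from the annotated start site (x axis, start site at 0). Hspa8 carries 4 matches, and the same block of 3 appears in Hspd1 and Hspe1.

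The factors themselves and other known targets of theirs differed little. Hsf1, the main heat shock factor, had 9.57 in the propolis pool, against 9.47 in the saline pool (0.10), and Hsf2 differed by -0.25, the lowest of 4 genes in its list. Of 11 detected genes in a list of further heat shock factor targets, 7 lay above 0 and none reached 1.5-fold, with a median of 0.02. Cacybp was the highest at 0.40 and Hmox1, heme oxygenase, the lowest at -0.35. The list holds Hspbap1, which is itself a member. Signals of the factors say nothing of their activity, which is set largely on the protein.

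Chaperone helpers outside the name pattern lay near 0 as cochaperones and mostly above 0 as mitochondrial chaperones and proteases. Of 24 detected cochaperones of HSP90 and HSP70, 15 lay above 0 (median 0.04), and 1 was at least 1.5-fold lower. This was Fkbp5, a cochaperone of steroid receptors, with 10.09 in the propolis pool, against 10.87 in the saline pool (-0.79), and the highest was Cacybp, which is on the target list too. The list is not all cytosolic: Sil1, an exchange factor of the endoplasmic reticulum, was its second lowest at -0.58, and Dnlz (0.06) and Tomm70a (-0.03) are mitochondrial. Among 12 prefoldin and tubulin-folding partners of CCT, 8 lay above 0 (median 0.04), with Pdcl3 highest at 0.50 and Tbca lowest at -0.22.

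Of 16 mitochondrial chaperones and proteases, 13 lay above 0, with a median of 0.21. Clpx, the unfoldase of the ClpXP protease, was 1.59-fold higher (14.57 in the propolis pool, against 13.90 in the saline pool, 0.67), and Htra2 was the lowest at -0.09. Trap1, the HSP90 of mitochondria, chosen after its value was seen, differed by 0.46.

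Most chaperones of the endoplasmic reticulum lay on the other side of 0. Of 15 genes, 13 were lower, with a median of -0.34, and 2 were at least 1.5-fold lower: Sdf2l1 (11.46 in the propolis pool, against 12.39 in the saline pool, -0.93) and Dnajb11 (7.46 in the propolis pool, against 8.05 in the saline pool, -0.59). Dnajb9 was the highest at 0.25. Hsp90b1, the HSP90 of that compartment and named after its value was seen, differed by -0.35, where both cytosolic HSP90 genes lay above 0. The HSP70 pair showed no such contrast. Hspa5, the HSP70 of that compartment and named in the same way, had 14.32 in the propolis pool, against 14.28 in the saline pool. Its difference of 0.04 lay on the same side of 0 as that of cytosolic Hspa8. The name pattern itself lets in 4 proteins known from the endoplasmic reticulum, and 3 of them (Hspa13, Dnajc10 and Dnajb12) lay below 0 by their brightest probe, with Dnajc14 at 0.17. The other probes of Dnajc10 (0.30) and Dnajb12 (0.005) lay above 0. These 4 proteins go against the naming by compartment, and leaving them aside keeps 66 members. Of those, 59 were not assigned to a compartment, so others may go against the naming too. The cytosolic and the endoplasmic reticulum genes were not tested against each other.

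**Figure D5:**
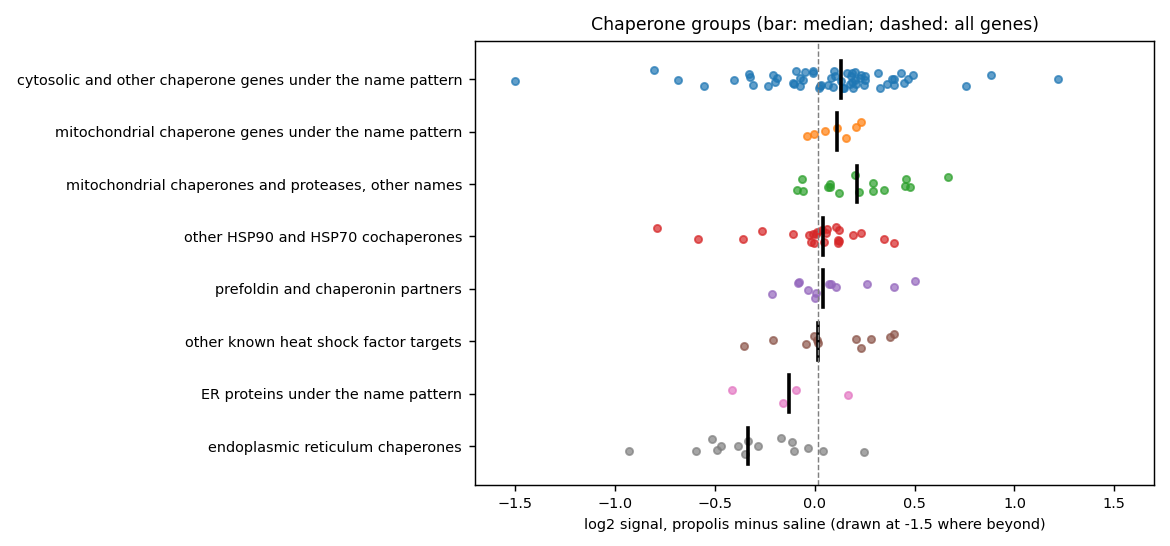
Log2 difference (x axis) of each gene in 8 chaperone groups, with a black bar at the group median and a dashed line at the median of all genes (0.02). Dnajc27 (-3.01) is drawn at the left edge. Mitochondrial genes lie mostly to the right and endoplasmic reticulum chaperones mostly to the left.

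The liver identity of the RNA was plain, since all 10 hepatocyte markers were detected on both arrays, with a median difference of -0.03. They were not all level, with 4 above 0 and 5 below. Cyp2e1 was the highest (17.37 in the propolis pool, against 16.30 in the saline pool, 1.06) and Cps1 the lowest at -0.56. For several other cell types most markers lay below 0. Of 10 macrophage markers 9 were lower (summed log2 signal 16.21 in the propolis pool, against 16.78 in the saline pool), as were 6 of 7 detected T and NK cell markers (9.98 in the propolis pool, against 10.60 in the saline pool), with Cd3e not detected. All 5 erythroid markers were lower (11.61 in the propolis pool, against 12.50 in the saline pool), as were 4 of 5 endothelial ones (14.26 in the propolis pool and 14.26 in the saline pool) and the 3 detected neutrophil ones (8.03 in the propolis pool, against 9.31 in the saline pool), with Elane, Ngp and Csf3r not detected. Stellate cell and fibroblast markers lay within the range of the chaperones, with 4 of 6 above 0 (12.42 in the propolis pool, against 12.40 in the saline pool) and none 1.5-fold apart. Of the cholangiocyte markers Krt19 (-0.66) and Cftr (-2.47, detected in the saline pool only) were lower, Epcam (0.67) was higher and Sox9 was not detected. The summed log2 signal of the 3 detected ones was 8.51 in the propolis pool, against 8.36 in the saline pool. Epcam was the brightest of them, with 8.28 in the propolis pool, against 7.60 in the saline pool. The B cell marker Cd79b was detected in the propolis pool only (5.01 in the propolis pool, against 3.57 in the saline pool). In whole liver RNA, fewer cells of a type and less RNA per cell cannot be told apart. The part of these cells in the chaperone differences was not tested.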

How the data were processed

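Per the labels' protocols, liver RNA from 6 rats of a group went into 1 pool, was labelled with Cy3 and was hybridised to 1 Agilent array. The submitters' processing notes name Agilent Feature Extraction 9.5 as the image reader. The authors deposited log2 signals for 41012 probes, with a letter P, M or A for each probe and array. P was taken as detected, and no source used here describes the background correction. The columns looked quantile normalized, since sorted values differed by at most 0.0255. The linear fold ratio that the authors deposited has the direction propolis over saline, as it matches the difference of the log2 columns to 1.84e-07. The deposited series matrix gives those log2 values again to 2 decimals, for 23054 probes that are P on each array, with medians of 7.53 for propolis and 7.52 for saline, so scale, centring and direction are known.

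Genes were taken by deposited symbol and read by the brightest probe (highest mean of both arrays). Differences were counted at 1.5-fold and 2-fold. A gene detected on 1 array is given as a bound against the higher of its dim value and the lowest P value of that array, 3.83 on both. Of 80 member symbols, 79 matched RefSeq (GRCr8) by Entrez ID, 1 under another symbol. The members and lists were chosen with earlier results of these data known. Named were members at least 1.5-fold apart, those detected on 1 array, the highest and lowest of each role and textbook members, and the highest, the lowest and any gene at least 1.5-fold apart of each other chaperone list. A planned search of protein C-termini was not run. Counting was tested on simulated data. Alternatives were median centring, quantile normalization, loess (span 0.3), the series matrix, other detection filters and probe choices, 50 units added to the signal, bounds and a fold of 3. Python 3.11.15, numpy 2.4.6, pandas 2.3.3, statsmodels 0.14.6 and matplotlib 3.10.9 were used. With 2 arrays in all, their number limits the precision.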

Additional observations from a re-analysis of the deposited data

How the results depend on the processing

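No paired analysis was possible because each group is 1 array. The median difference of the members (0.11) and the counts at 1.5-fold (3 higher, 3 lower) and 2-fold (1 higher, 1 lower) stayed close under median centring, quantile normalization, loess, the series matrix, detection on both arrays, bounds, and, chosen after seeing the data, probes added by current symbol. Without the detection filter, which adds 10 undetected genes, the counts were 5 higher and 5 lower at 1.5-fold and 2 higher and 2 lower at 2-fold. With the mean of the probes of a gene 2 were at least 2-fold higher. With the second brightest detected probe, which 19 members have, 1 was at least 1.5-fold higher, 0 at least 2-fold lower, and the median was 0.16. With 50 units added to the signal, which shrinks dim differences by construction, 1 was higher and 1 lower at 1.5-fold, 0 higher at 2-fold, and the median was 0.076. At 3-fold 0 were higher. For 30 named members, all 304 values under these alternatives kept their side of 0, and 295 stayed within 1 probe SD of the value reported. Most of these alternatives read the same brightest probe again, and some cannot change a sign by construction. The kept sides are therefore a weak check. With the second brightest detected probe, 3 of the named values moved by more than 1 probe SD and 5 did not. With the 50 units, Dnajc27 was at -1.47, Dnajb3 at 0.48, Hspa1a at -0.19 and Cct6b at -0.16. Of the 18 members, named or not, for which each array detected 2 or more probes, 5 (Cct5, Cct8, Dnajb12, Dnajc8 and Dnajc10) had them on both sides of 0. These 5 are outside the 30 named members. Signals under 6 have a probe SD of 0.34, so Dnajb3, Hspa1a, Cct6b and Dnajc27 are the least certain.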

Other observations

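Several chaperone genes sit on the array under older symbols that the name pattern misses, and they were added after seeing the data by their current RefSeq symbols. Ahsa1, the activator of HSP90 ATPase listed under a locus number, had 13.16 in the propolis pool, against 13.06 in the saline pool (0.10). Bag6, listed as Bat3, differed by 0.01, Dnajb2 by 0.03 and Dnajc19, a part of the mitochondrial import motor, by 0.07. The chaperonin-like Hspd1l2 differed by 0.23 and Dnajc17l1 by 0.39. With these 6 genes, 50 of 76 lay above 0 and the median was 0.10.

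The 3 probes of Hsp90ab1 do not share a locus in the deposited coordinates. The brightest starts at position 11036014 and another at 11038254 of chromosome 9, both on the plus strand. The third starts at 42475398 of the same chromosome, on the minus strand. The third also had the largest difference (0.52, against 0.25 and 0.37).

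Gene lists that respond to handling, body temperature and time of day were mixed. Of 10 immediate early genes 7 lay above 0, with Atf3 at 1.18 and Zfp36 at -1.01 at the ends and Fos at -0.74. The cold-inducible RNA-binding genes Cirbp and Rbm3 differed by 0.25 and -0.08. Of 14 clock genes 9 lay below 0, with Per1 lowest at -0.60 and Nr1d1 highest at 0.33. Their part in the chaperone differences was not tested.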
